A study of Mus musculus with 8 samples.

Results

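The genes for 4 subunits of AMP-activated protein kinase (AMPK), *Prkaa1*, *Prkaa2*, *Prkab2* and *Prkag3*, and the gene for the coactivator PGC-1α, *Ppargc1a*, were followed in spatial transcriptomes of the embryonic mouse diaphragm. They were chosen by symbol, with earlier results of these data known, and are 5 of the 19465 genes that the probe set measured. All 5 were detected in every section and all 5 passed the filter on low counts in every fit. The data comprised 8 sections, cut en face at 5 µm from formalin-fixed, paraffin-embedded diaphragm and captured on spots that lie 100 µm apart. Controls comprised 3 sections at embryonic day E14.5 and 2 at E18.5, and a control carried at least one allele of CaV1.1 and of β-catenin able to express the protein, so that controls may have been heterozygous, floxed or Cre positive. The CaV1.1 KO, named CaV1.1 -/- or dysgenic in the labels, lacks the voltage-sensing calcium channel subunit (*Cacna1s*) in the germ line and was represented by 1 section at E14.5 and 1 at E18.5. The β-cat cKO, bCat cKO in the labels, is a β-catenin flox/flox animal in which the human skeletal actin promoter drives Cre (HSA-Cre) in muscle fibers, and was represented by 1 section at E18.5. By the crosses that the paper describes, the CaV1.1 KO may also have carried Cre or floxed β-catenin alleles. The β-cat cKO may have carried a CaV1.1 null allele. The study's text speaks of separate diaphragms, while litter and sex are not given in the sources used here.

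AMPK is a heterotrimer that senses a fall in cellular energy. Its α subunit carries the kinase activity (α1 from *Prkaa1*, α2 from *Prkaa2*), the β subunit is a scaffold that binds glycogen (β2 from *Prkab2*) and the γ subunit binds adenine nucleotides (γ3 from *Prkag3*, an isoform known mainly from fast glycolytic skeletal muscle). Active AMPK phosphorylates acetyl-CoA carboxylase and other metabolic enzymes and raises glucose uptake and fatty acid oxidation. PGC-1α is a transcriptional coactivator, and a known AMPK substrate, that drives mitochondrial biogenesis and is known from oxidative fibers and brown fat.

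The members lie on 5 chromosomes of GRCm38: *Prkag3* at chr1:74738922-74749471, *Prkab2* at chr3:97658211-97673812, *Prkaa2* at chr4:105029649-105109898, *Ppargc1a* at chr5:51454249-52115853 and *Prkaa1* at chr15:5143861-5181899. All 5 matched a promoter in the RefSeq table for GRCm38.p6, and 3 are printed as the 250 bases before the start, since the results turn on how the catalytic pair *Prkaa1* and *Prkaa2* part and on *Ppargc1a*. Capitals mark matches on either strand to the E-box CANNTG, which myogenic basic helix-loop-helix factors bind, and to TGACG, the short form of the cyclic AMP response element. The 3 promoters lie at chr15:5143611-5143860 on the plus strand (*Prkaa1*) and, on the minus strand, at chr4:105109899-105110148 (*Prkaa2*) and chr5:51567726-51567975 (*Ppargc1a*, whose annotated gene extends further upstream to an earlier start).
Prkaa1: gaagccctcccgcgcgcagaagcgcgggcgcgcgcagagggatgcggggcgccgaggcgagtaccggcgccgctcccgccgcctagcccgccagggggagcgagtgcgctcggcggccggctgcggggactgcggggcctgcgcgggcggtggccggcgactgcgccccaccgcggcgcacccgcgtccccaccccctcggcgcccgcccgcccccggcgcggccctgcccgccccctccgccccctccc
Prkaa2: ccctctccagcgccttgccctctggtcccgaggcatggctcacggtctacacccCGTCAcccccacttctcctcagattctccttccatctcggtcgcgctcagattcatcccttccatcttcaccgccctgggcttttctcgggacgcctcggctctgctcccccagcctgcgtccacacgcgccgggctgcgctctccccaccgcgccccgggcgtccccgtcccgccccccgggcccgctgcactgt
Ppargc1a: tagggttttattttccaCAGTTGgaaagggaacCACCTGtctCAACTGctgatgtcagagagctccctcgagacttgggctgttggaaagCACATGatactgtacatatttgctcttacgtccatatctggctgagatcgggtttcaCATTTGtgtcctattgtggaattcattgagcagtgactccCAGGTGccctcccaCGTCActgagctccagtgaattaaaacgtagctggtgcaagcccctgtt
The *Ppargc1a* promoter held 6 E-boxes and 1 short response element, the *Prkaa2* promoter 1 short response element and no E-box, and the *Prkaa1* promoter neither. An E-box was present in 66.2% and the short response element in 17.8% of all 32851 promoters of this length. GC content was 85.2% for *Prkaa1* and 48.0% for *Ppargc1a*, against a median of 52.4% over all promoters. The *Prkag3* promoter held 1 E-box, and the *Prkab2* promoter held no match. The full response element TGACGTCA, found in 1.55% of all promoters, was in none of the 5.

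Sections held 14179161 to 82859104 UMIs, and 491 to 3092 muscle spots per section remained after spots with fewer than 1000 UMIs were removed and muscle was defined by 9 sarcomere genes (none of them a member). Section pairs shared 150 to 2153 spot barcodes, since barcodes mark fixed positions on a slide. The summed sarcomere genes stood at 21642 to 27362 UMIs per 1000000 (raw CPM) in the muscle of E14.5 controls and at 128417 to 131917 in E18.5 controls, at 16235 and 71384 in the CaV1.1 KO at E14.5 and E18.5, and at 105199 in the β-cat cKO. *Cacna1s* was 18.3 to 22.8 raw CPM in E14.5 controls and 16.2 in the KO, and 61.2 and 63.9 in E18.5 controls and 31.4 in the KO, a difference of -1.53 on the log2 scale at E18.5 (edgeR adjusted p = 0.00133). At E14.5 the difference of -0.30 did not pass (adjusted p = 0.340). *Ctnnb1*, which cells other than muscle fibers also express, was 81.5 in the β-cat cKO and 75.9 and 71.2 in E18.5 controls, and did not tell that section from the controls (difference -0.07, adjusted p = 0.770). Whether the probes lie inside the deleted parts is not given in the sources used here.

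Between E14.5 and E18.5, the muscle of control diaphragms gained transcripts of α2, β2, γ3 and PGC-1α relative to the median gene, whereas α1 did not pass the test. *Prkaa2*, for the α2 catalytic subunit, had 57.1, 41.1 and 51.0 CPM (UMIs per 1000000, here with library sizes scaled by the TMM method of edgeR) in the 3 E14.5 controls and 192 and 183 in the 2 E18.5 controls. *Ppargc1a* had 13.7, 10.8 and 9.86 CPM at E14.5 and 70.3 and 75.9 at E18.5. *Prkag3* had 39.3, 30.4 and 47.0 at E14.5 and 84.2 and 87.0 at E18.5, and *Prkab2* had 38.5, 27.2 and 31.7 against 69.5 and 57.9. *Prkaa1*, the other catalytic subunit gene, had 50.5, 44.6 and 49.6 at E14.5 against 41.2 and 42.4 at E18.5. 

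**Figure D1:**
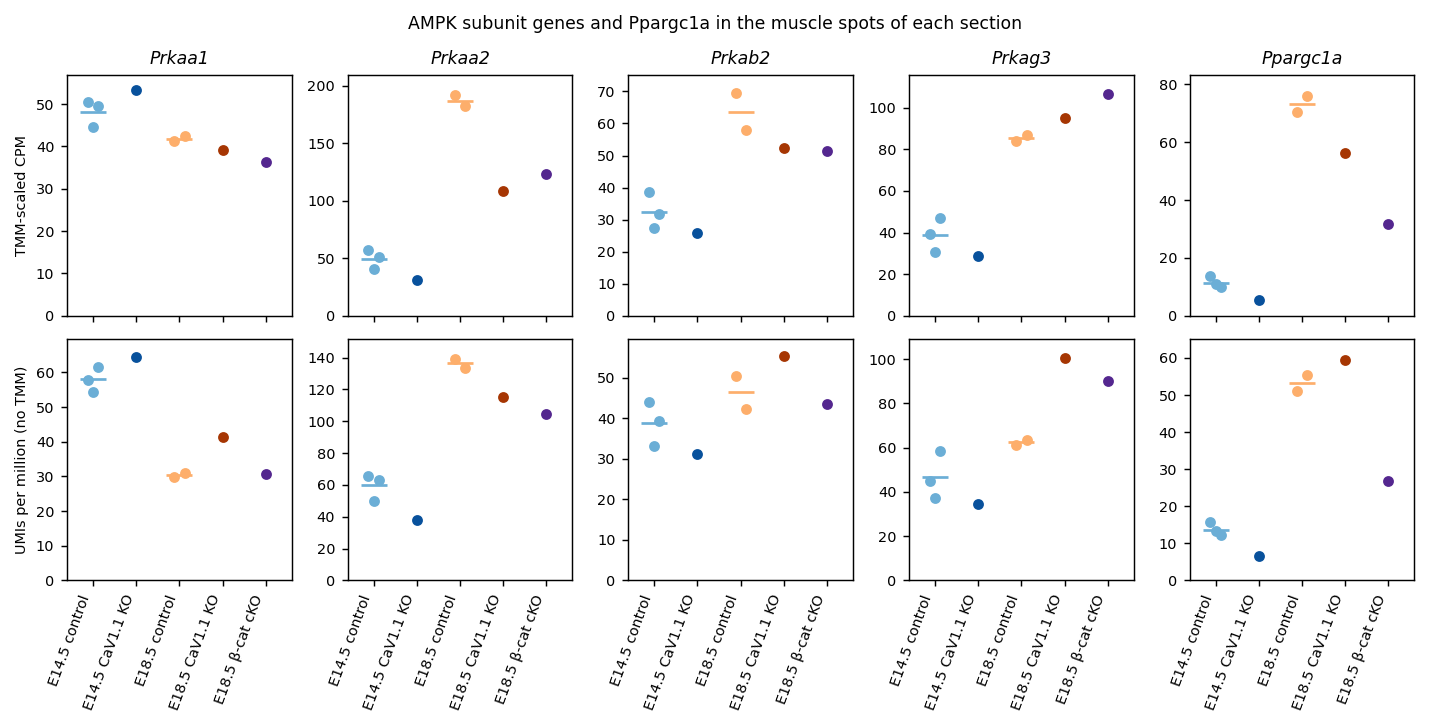
Levels of the 5 members in the muscle spots of each section, 1 point per section and a line at the control mean, as TMM-scaled CPM in the upper row and as raw CPM in the lower row, with 1 column per gene. On the TMM scale the E18.5 controls lie above the E14.5 controls for *Prkaa2*, *Prkab2*, *Prkag3* and *Ppargc1a* and below them for *Prkaa1*; per sarcomere UMI, which is not drawn, all of these are lower at E18.5.

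In this comparison 65.6% of 14832 tested genes passed an adjusted p of 0.05, so 4 of 5 members stood near the background. *Ppargc1a* rose most among the members, from a mean of 11.5 ± 1.98 (SD, n = 3) to 73.1 ± 3.97 CPM (SD, n = 2), by 2.67 on the log2 scale (SE 0.13, edgeR adjusted p = 2.73e-06). *Prkaa2* rose from 49.7 ± 8.11 to 187 ± 6.53 CPM, by 1.92 (SE 0.13, adjusted p = 1.1e-05). *Prkag3* rose by 1.15 (SE 0.16, adjusted p = 0.000399), from 38.9 ± 8.28 to 85.6 ± 1.95 CPM, and *Prkab2* by 0.97 (SE 0.15, adjusted p = 0.000706), from 32.5 ± 5.65 to 63.7 ± 8.21 CPM. *Prkaa1* stood at 48.2 ± 3.19 and 41.8 ± 0.807 CPM, a difference of -0.20 (SE 0.09, adjusted p = 0.0716). In a sum over spots, fewer cells of a type and less RNA per cell cannot be told apart.

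The scaling decides what these differences are relative to. With total UMIs alone, without TMM, the median gene differed by -0.73 between the stages, *Prkab2* by 0.26 (adjusted p = 0.116) and *Prkaa1* by -0.93 (adjusted p = 3.48e-05). Per UMI of the 9 sarcomere genes the median gene differed by -3.19, and *Ppargc1a*, *Prkaa2*, *Prkag3* and *Prkab2* turned to -0.49, -1.25, -2.03 and -2.18. Genes higher and lower at E18.5 numbered 4930 and 4796 with TMM, 2259 and 9033 without it and 209 and 13998 per sarcomere UMI. For the CaV1.1 KO at E18.5 the counts were 1568 higher and 2251 lower, 7245 and 752 without TMM, and 12366 and 102 per sarcomere UMI. For the KO at E14.5 they were 79 and 229, 94 and 261, and 4783 and 156, and for the β-cat cKO 471 and 834, 2258 and 568, and 3652 and 234. The median gene shifted by 0.54, 0.01 and 0.21 without TMM in the KO at E18.5, the KO at E14.5 and the cKO, and by 1.40, 0.56 and 0.52 per sarcomere UMI. A change of scaling shifts all genes of a comparison by about the same amount. Relative to the median gene, the members' differences between stages and genotypes therefore moved by at most 0.00554 and 0.0235 between TMM and these scalings. This follows from how they are computed and cannot decide which scaling is right. Levels and differences are given on the TMM scale, relative to the median gene, unless raw CPM are named.

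The rest of the pathway was read from gene lists. Of the 3 other AMPK subunit genes tested, *Prkag1* (γ1) rose by 0.61 (adjusted p = 0.000709) and *Prkab1* (β1) fell by 0.69 (adjusted p = 0.000278) from E14.5 to E18.5, and *Prkag2* (γ2) stood at 0.02 (adjusted p = 0.904). Among 11 genes that act on AMPK, 4 were higher and 2 lower at E18.5 (median 0.13), including *Cab39* at 1.16 and *Stradb* at 1.23, partners of the upstream kinase LKB1, and *Camkk2*, a calcium-dependent upstream kinase, at -0.28. Among 16 genes for AMPK substrates, 9 were higher and 3 lower (median 0.58). *Acacb*, the acetyl-CoA carboxylase known for regulating fatty acid entry into mitochondria, rose by 4.82 and *Gys1*, the muscle glycogen synthase, by 2.04, while *Acaca*, the carboxylase of fatty acid synthesis, fell by 1.13. Of 18 genes of the PGC-1 family and its partners, 11 were higher and 5 lower (median 0.89). *Perm1*, a muscle gene that PGC-1 factors induce, rose by 4.73 and *Ppara*, a receptor that drives fatty acid oxidation, by 3.28, whereas *Nrf1* fell by 0.92 and *Pprc1* by 0.84. Of 19 tested genes known to be driven by PGC-1α, 17 were higher and 0 lower (median 2.15), among them *Cpt1b* at 4.496 and *Pdk4* at 4.93. The median over all tested genes was -0.01, and 33.2% of genes were higher.

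In the CaV1.1 KO at E14.5, *Ppargc1a* was the member called, at 5.38 CPM against 13.7, 10.8 and 9.86 in the controls. The section held 135 *Ppargc1a* UMIs in muscle, 6.50 raw CPM (exact Poisson 95% interval 5.45 to 7.70, counting error only), below each control (12.2 to 15.7). A mutant group has 1 section, for which the test takes over the spread among control sections. The difference was -1.10 (SE 0.20, adjusted p = 0.0423), in a comparison that called 2.08% of genes. The call was lost without E14.5 control 2 (-1.14, adjusted p = 0.0729) or 3 (-1.18, 0.0792), in muscle more than 150 µm from its edge (-1.03, 0.111) and with the replicate number as a block (-1.23, 0.118), with differences of about the same size, and per sarcomere UMI, where the difference was smaller (-0.52, 0.163). *Prkaa2* stood at 31.4 CPM against 41.1 to 57.1, a difference of -0.66 (SE 0.18, adjusted p = 0.124) that passed with DESeq2 (0.00932) and without E14.5 control 2 (0.0495). *Prkab2* at 25.9 and *Prkag3* at 28.5 CPM were also below all 3 controls, at -0.33 (adjusted p = 0.479) and -0.44 (0.366), and *Prkaa1* at 53.4 was above them, at 0.15 (0.566).

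In the CaV1.1 KO at E18.5, *Prkaa2* was the member called, at 109 CPM against 192 and 183 in the controls. It was lower by -0.78 (SE 0.18, adjusted p = 0.0193), in a comparison that called 25.7% of genes, and not past the test in muscle more than 150 µm from the edge (-0.55, adjusted p = 0.0790) or with total UMIs alone (-0.25, 0.220). Per sarcomere UMI it was called in the opposite direction (0.62, adjusted p = 0.0214). *Ppargc1a* at 56.1 CPM lay below both controls (difference -0.38, adjusted p = 0.152), *Prkab2* at 52.5 likewise (-0.28, 0.350), *Prkag3* at 95.04 above both (0.15, 0.632) and *Prkaa1* at 39.1 below both (-0.09, 0.592). Without TMM, *Ppargc1a*, *Prkab2* and *Prkaa1* turned to 0.16, 0.26 and 0.44. The summed sarcomere genes were also below the controls of the stage in each of the 3 mutant sections, and their part in these differences was not tested.

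In the β-cat cKO, *Ppargc1a* was called, at 31.6 CPM against 70.3 and 75.9 in the E18.5 controls. The difference was -1.21 (SE 0.18, adjusted p = 0.0104), in a comparison that called 8.80% of genes, and did not pass with the replicate number as a block, where the difference did not shrink (-1.26, adjusted p = 0.0594), or per sarcomere UMI, where it did (-0.68, 0.0783). *Prkaa2*, at 123 CPM below both controls, differed by -0.61 (SE 0.18, adjusted p = 0.0802) and passed with DESeq2 (0.0235), with all spots of the section (0.0440), with no filter on low counts (0.0349) and without E14.5 control 1 (0.0454) or 2 (0.0429), since all sections share the estimate of the spread. *Prkag3* at 107 CPM lay above both controls (0.32, adjusted p = 0.387), and *Prkab2* at 51.3 and *Prkaa1* at 36.3 lay below both (-0.31, 0.381, and -0.20, 0.324). Between the cKO and the CaV1.1 KO at E18.5, *Ppargc1a* differed by -0.83 on the log2 scale. This sets 1 section against 1, neither with a spread of its own, so the test rests on the spread of the controls and cannot decide whether the mutants differ. With that spread 7.30% of genes and 0 of 5 members were called by edgeR, and 1 member by DESeq2 or at an unadjusted p of 0.05. The CaV1.1 KO difference itself was called as different between the stages for 0 members by edgeR (6.40% of genes called) and 0 by DESeq2, and for 1 at an unadjusted p of 0.05 (*Ppargc1a*, 0.71, adjusted p = 0.139). The brown fat genes *Ucp1*, *Cidea* and *Elovl3*, whose tissue also expresses *Ppargc1a*, summed to 13.7 and 16.6 raw CPM in the muscle of E18.5 controls, 18.04 in the KO and 37.3 in the cKO, and to 4.3 to 6.6 in E14.5 controls and 1.7 in the KO; their part in the *Ppargc1a* values was not tested.

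Beside the members, the lists moved as follows. In the CaV1.1 KO at E14.5, 0 of 11 upstream genes, 1 of 16 substrates (*Acacb*, -1.49, adjusted p = 0.016), 2 of 18 PGC-1 genes (including *Perm1*, -3.00) and 1 of 19 PGC-1-driven genes (*Cpt1b*, -3.04) passed, all of them lower. At E18.5 the KO had 6 upstream genes lower (median -0.56), with *Cab39* at -0.69 and *Stradb* at -1.04. Of the substrates 1 was higher, *Hdac4* at 0.47, and 6 were lower, with *Tbc1d1* and *Acacb* both at -0.97. Of the PGC-1 genes, 2 were higher (*Nrf1*, 0.37, and *Sirt1*, 0.53) and 8 lower (*Perm1*, -1.87, and *Ppargc1b*, the gene of PGC-1β, -1.10), and 14 PGC-1-driven genes were lower and 0 higher (median -0.95). *Prkag1* was lower as well, at -0.56 (adjusted p = 0.0196). In the β-cat cKO, 1 upstream gene (*Stradb*, -0.71), 2 substrates (*Acacb*, -1.51, and *Gys1*, -0.90), 6 PGC-1 genes and 8 PGC-1-driven genes (median -0.64; *Pdk4*, -1.42) were lower and none of these lists had a gene that was higher. The medians over all genes lay between -0.00553 and 0.00273 in these 3 comparisons.

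The catalytic pair was also read as a share, the percentage of *Prkaa1* and *Prkaa2* UMIs that came from *Prkaa2*. Each gene has its own probes, so the share is not a share of molecules, but its differences between samples do not depend on library scaling. In muscle it was 53.1%, 47.9% and 50.7% in the E14.5 controls and 82.3% and 81.2% in the E18.5 controls. The CaV1.1 KO stood at 37.0% at E14.5 and 73.5% at E18.5, and the β-cat cKO at 77.2%, each below all controls of its stage. The controls differed by 31.2 percentage points (50.6 ± 2.56, SD, n = 3, and 81.7 ± 0.809, SD, n = 2), and a two-sided exact permutation test gave p = 0.1, the smallest this design allows (0.133 adjusted). Center exceeded periphery in all 8 sections, by 12.3 ± 8.45 points (SD, n = 8; exact permutation p = 0.0078125, the smallest possible, 0.015625 adjusted over 4 such comparisons). Muscle exceeded the tissue outside muscle in all 8 sections, by 26.3 ± 4.99 points (SD, n = 8; exact permutation p = 0.0078125, 0.015625 adjusted). The 4 share comparisons were added after the share values had been seen, and 8 sections of the same sign always give this smallest p-value. The paper had also listed *Prkaa2* as a center gene in these same E14.5 controls. These p-values are therefore not independent evidence. Slow-rich minus fast-rich muscle spots, split by fiber type genes, gave -3.74 ± 6.56 points (SD, n = 8; exact permutation p = 0.15625, also after adjustment). This mean pools both stages. In E18.5 controls the share was 80.8% and 78.1% in slow-rich against 83.8% and 84.3% in fast-rich spots. The CaV1.1 KO and the β-cat cKO at E18.5 had 68.7% and 69.9% against 79.5% and 81.6%. At E14.5 the controls had 49.6%, 50% and 46.9% against 53.1%, 43.8% and 52.9%, and the KO 33.2% against 28.2%. Outside muscle the share was 21.0% to 26.5% in E14.5 controls and 62.2% and 53.9% in E18.5 controls. Spots outside muscle are those below the sarcomere threshold of the section and can still hold muscle RNA. Its part in these shares was not tested.

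**Figure D2:**
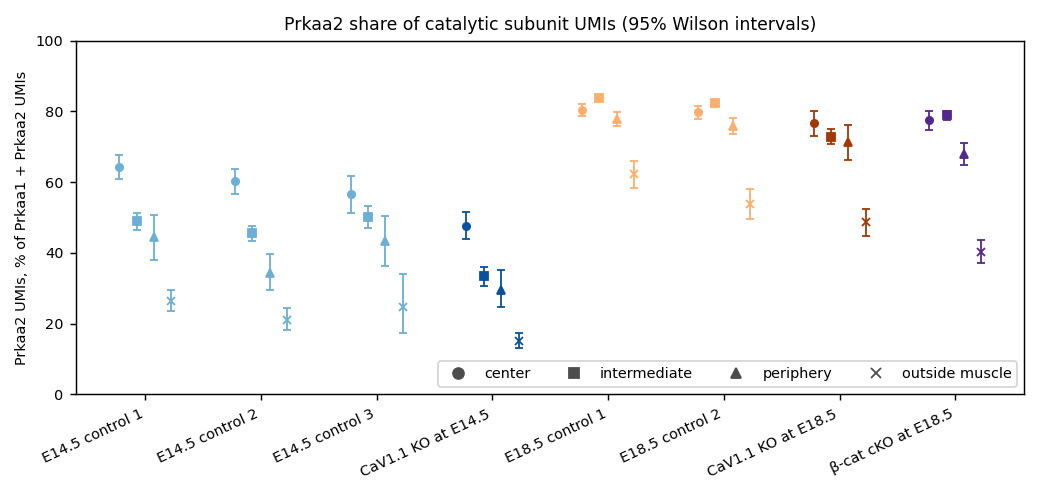
*Prkaa2* as a percentage of *Prkaa1* plus *Prkaa2* UMIs (y axis) in each of the 8 sections (x axis), with separate symbols for the center, the fibers in between (intermediate), the periphery and outside muscle, and with 95% Wilson intervals that cover counting error only. The share falls from center to periphery in all 8 sections, and center lies above the fibers in between in the 4 sections at E14.5 and in the CaV1.1 KO at E18.5 but below them in both E18.5 controls and the β-cat cKO.

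Along the muscle, spots were ranked by 8 endplate genes of the neuromuscular junction (NMJ) and by 4 genes of the myotendinous junction (MTJ), and the top 15% of each gave the muscle center and periphery. At E14.5 all 4 AMPK subunit genes were higher in the center and *Ppargc1a* was not called, against a background of 20.4% of genes. *Prkaa2* had 110, 79.1 and 78.3 CPM in the center, 47.2, 36.8 and 49.4 in between and 34.3, 21.9 and 33.5 at the periphery. In each control section it fell from center to periphery, and the lowest center value exceeded the highest value in between. The center to periphery difference was 1.65 (SE 0.10, adjusted p = 1.16e-13). The paper had already listed *Prkaa2* among the genes of its muscle center cluster, found in these same E14.5 controls. This p-value is therefore not independent evidence. Against the fibers in between, the center was higher by 1.045 for *Prkaa2*, 0.45 for *Prkab2*, 0.38 for *Prkag3* and 0.28 for *Prkaa1*, where 7.16% of genes were called as higher. By distance from the edge these were 0.18, 0.20, 0.25 and 0.07, none of them called (adjusted p 0.476, 0.498, 0.241 and 0.902), and *Prkag3* was not called without E14.5 control 2 (0.22, 0.166). The periphery was lower than the fibers in between for *Prkaa2* alone (-0.60, adjusted p = 0.00014; 7.66% called). *Prkab2* had 52.6, 36.8 and 37.3 CPM in the center and 29.6, 21.5 and 31.8 at the periphery (0.67, SE 0.11, adjusted p = 1.69e-05). *Prkag3* had 44.5, 43.9 and 56.0 against 34.7, 27.5 and 42.7 (0.49, SE 0.10, 0.000413), and *Prkaa1* had 60.9, 52.3 and 60.0 against 43.1, 41.8 and 44.0 (0.41, SE 0.08, 0.00032); by distance from the muscle edge *Prkaa1* was not called (0.11, 0.240). *Ppargc1a* had 11.7, 11.2 and 7.30 CPM in the center and 14.47, 11.9 and 9.63 at the periphery, from 18 to 64 UMIs per class and section, and the difference of -0.22 (SE 0.17, adjusted p = 0.435) was not detectable at this depth.

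**Figure D3:**
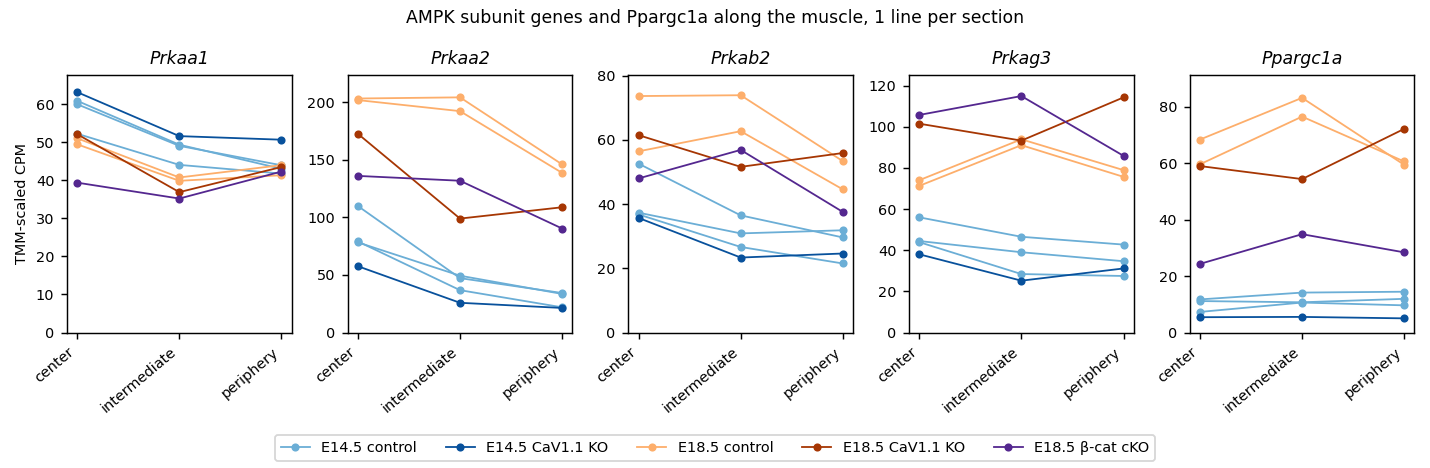
TMM-scaled CPM of the 5 members in muscle center, the fibers in between and periphery, 1 line per section, colored by group, and 1 panel per gene. *Prkaa2* steps down at both borders in E14.5 controls (110, 47.2 and 34.3 CPM in control 1) and at the outer border alone in E18.5 controls (203, 204 and 146 in control 1), where *Prkag3* and *Ppargc1a* are highest in between; with regions set by distance from the muscle edge both are highest in the core.

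At E18.5 the gradient of *Prkaa2* was smaller and that of *Prkag3* was not called. *Prkaa2* had 203 and 202 CPM in the center, 204 and 192 in between and 146 and 139 at the periphery. The center was thus level with the fibers in between, and the drop lay toward the MTJ. The center to periphery difference was 0.51 (SE 0.06, adjusted p = 2.66e-07; 20.9% of genes called). *Prkab2* differed by 0.41 (SE 0.08, adjusted p = 0.000139) and lost the call without E18.5 control 1 (0.0606) and with regions of 25% of the spots (0.0899). *Prkaa1* differed by 0.24 (SE 0.08, adjusted p = 0.0215), and lost the call with DESeq2 (0.224), total UMIs alone (0.114), the sarcomere scaling (0.670), regions of 10% or 25% of the spots (0.106 and 0.0947) and without E18.5 control 1 (0.278) or 2 (0.162); by distance from the muscle edge it stood at -0.01. *Prkag3* (-0.09, adjusted p = 0.436) and *Ppargc1a* (0.08, 0.494) were not called. Both were lower in the center than in between, while *Prkaa1* was higher there (0.32, adjusted p = 0.000646). *Prkag3* stood at 71.3 and 74.0 CPM against 91.0 and 93.9 (-0.35, adjusted p = 0.000134) and *Ppargc1a* at 59.6 and 68.4 against 76.6 and 83.2 (-0.32, 0.00041), in a comparison that called 12.1% of genes. DESeq2 called none of these 3 genes (0.0766 for *Prkaa1*, 0.0701 for *Prkag3* and 0.363 for *Ppargc1a*), and without E18.5 control 1 neither *Prkaa1* (0.0628) nor *Ppargc1a* (0.0899) was called. With regions set by distance from the muscle edge the differences of *Prkag3* and *Ppargc1a* turned to 0.07 and 0.36, and the core exceeded the edge by 0.63 for *Prkag3* (adjusted p = 1.19e-07) and by 0.59 for *Ppargc1a* (1.09e-06). Periphery against the fibers in between (30.8% called) gave lower values for *Prkaa2* and *Prkab2* (both -0.48), *Ppargc1a* (-0.40) and *Prkag3* (-0.26).

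The center to periphery difference itself changed between the stages for *Prkaa2*, by -1.14 (SE 0.12, adjusted p = 9.75e-08), and for *Prkag3*, by -0.58 (SE 0.12, adjusted p = 0.00181), in a test that called 8.17% of genes. With regions set by distance from the edge in place of NMJ and MTJ genes, the stage differences were -0.00 and 0.04, so these 2 calls hold for the regions by marker genes. In the mutants *Prkaa2* was the member called between center and periphery. It had 57.6 and 21.3 CPM in the CaV1.1 KO at E14.5 (1.43, SE 0.19, adjusted p = 9.53e-06; 5.22% called), 173 and 109 at E18.5 (0.67, SE 0.15, 0.00551; 2.57% called) and 136 and 90.3 in the β-cat cKO (0.59, SE 0.11, 0.000252; 10.7% called). With regions of 25% of the spots the last 2 were not called (0.0799 and 0.0505). In the mutants, too, center means the muscle spots highest for the endplate genes. The paper reports that *Chrna1* and *Musk* were expressed broadly in CaV1.1 KO muscle at E18.5. In that section the class may therefore not mark the middle of the fibers.

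Position was also read as distance to the nearest kept spot outside muscle, called the muscle edge. Bare slide did not count, so muscle that borders no captured tissue can count as far from the edge. In E14.5 control 3, 420 of 581 muscle spots lay beyond 250 µm. *Prkaa2* in raw CPM was 78.5, 58.2 and 68.4 in the E14.5 controls beyond 250 µm from the edge, 69.0, 55.6 and 54.7 between 150 and 250 µm and 49.5, 35.4 and 39.1 within 150 µm. The E18.5 controls had 146 and 140, then 122 and 110, then 110 and 95.6. The 3 mutant sections had 49.7, 139 and 115 beyond 250 µm and 29.9, 88.9 and 71.9 at the edge, so *Prkaa2* fell toward the edge in all 8 sections. *Prkaa1* was 57.3, 57.0 and 61.5 in E14.5 controls beyond 250 µm and 58.9, 52.2 and 66.1 within 150 µm, and 29.1 and 29.9 against 34.9 and 40.1 in E18.5 controls.

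**Figure D4:**
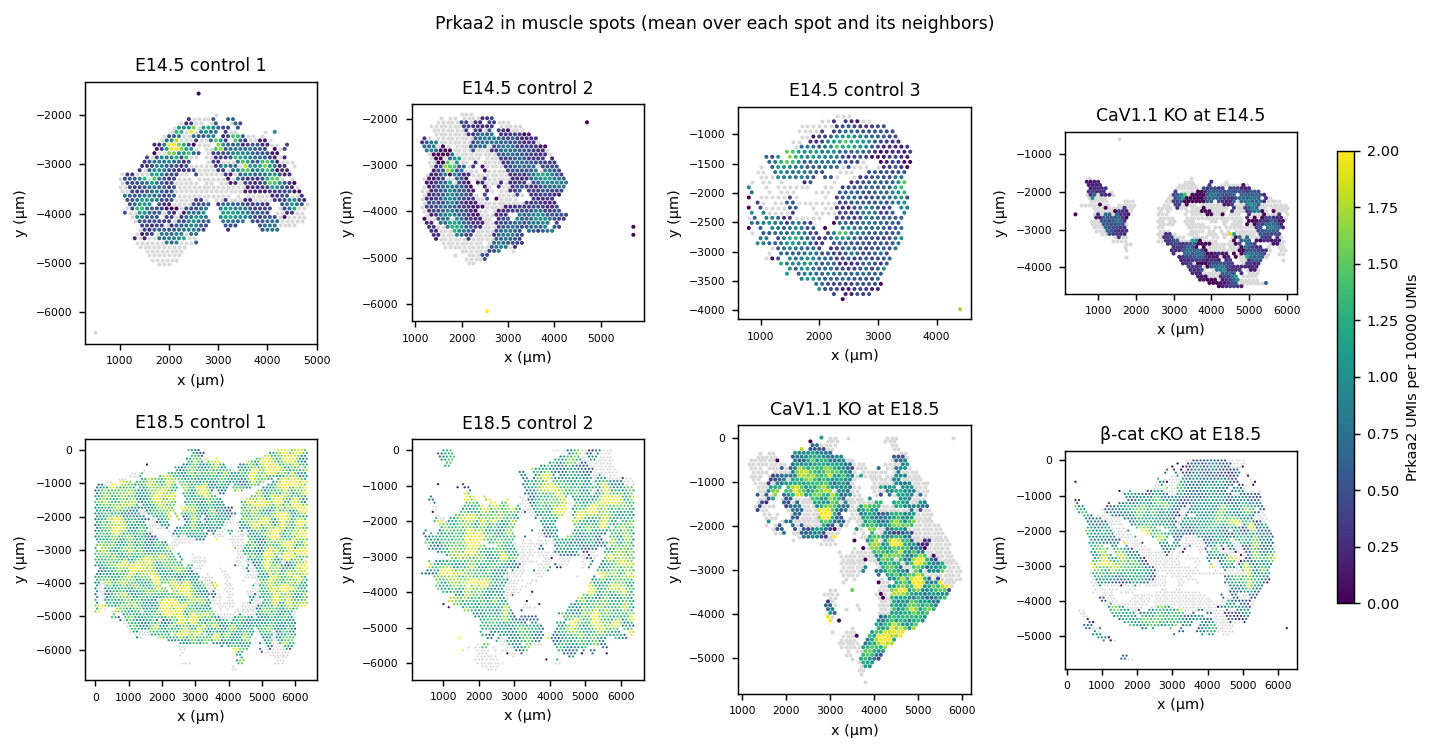
Maps of *Prkaa2* in the muscle spots of the 8 sections, each spot colored by UMIs per 10000, averaged over the spot and its neighbors, on a scale of 0 to 2 shared by all maps, with spots outside muscle in grey. The E14.5 maps are darker (lower values) than the E18.5 maps, and in each section the spots next to the grey tissue have lower values on average than those beyond 250 µm.

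Other tissue moved with the regions. The fibroblasts list summed to 7768 to 9415 raw CPM in the center and 12773 to 14174 at the periphery of E14.5 controls, and to 7584 and 9391 against 13056 and 16520 in E18.5 controls, whereas the 9 muscle genes summed to 25136 to 29706 against 22721 to 28425 and to 118497 and 126101 against 114862 and 115083. UMIs per spot were 24578 to 57043 in the center and 21923 to 47730 at the periphery of E14.5 controls. The part of fibroblasts and depth in the gradients was not tested. Among the lists, center exceeded periphery at E14.5 for 6 of 18 PGC-1 genes (*Perm1*, 1.12; *Ppara*, 0.73) and 8 of 19 PGC-1-driven genes (*Cpt1b*, 0.82; *Cox6a2*, a heart and muscle subunit of cytochrome oxidase, 0.64), with 0 lower in either. For upstream genes 2 were higher and 3 lower, *Stradb* at 0.41 and *Stk11* (LKB1) at 0.22 against *Map3k7* (TAK1) at -0.32 and *Camkk2* at -0.28. For substrates 3 were higher and 1 lower, with *Tbc1d4*, which gates glucose transporter traffic, at 0.60. At E18.5 the counts were 6 and 0 for PGC-1 genes, 12 and 0 for PGC-1-driven genes, 3 and 2 for substrates (*Acacb*, 0.35; *Acaca*, -0.37) and 1 and 1 for upstream genes (*Stradb*, 0.68; *Map3k7*, -0.66). *Prkab1* ran the other way, at -0.44 (adjusted p = 0.00256).

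Between muscle and the tissue outside it, *Prkaa2*, *Prkag3* and *Prkab2* had the highest differences of the 5 members in controls of both stages. At E14.5 *Prkaa2* had 64.8, 47.3 and 58.0 CPM in muscle and 18.04, 12.04 and 14.9 outside (1.91, SE 0.12), *Prkag3* had 44.6, 35.1 and 53.4 against 13.6, 9.27 and 13.1 (1.85, SE 0.12) and *Prkab2* had 43.6, 31.4 and 36.1 against 19.1, 17.6 and 16.7 (1.03, SE 0.11). All 5 members were called, where 37.4% of all genes were. *Ppargc1a* had 15.5, 12.5 and 11.2 CPM in muscle and 8.73, 7.62 and 10.1 outside (0.67, SE 0.15, adjusted p = 0.0109), and lost the call without E14.5 control 1 (0.0813) or 2 (0.0761). *Prkaa1* had 57.3, 51.4 and 56.4 against 50.1, 45.2 and 45.3 (0.22, SE 0.07, adjusted p = 0.048) and lost the call when any 1 of the 5 control sections was left out. It was also lost with DESeq2 (0.215), DESeq2 size factors in edgeR (0.0674), no filter on low counts (0.0577) and a minimum of 5000 UMIs per spot (0.0546). With total UMIs alone the *Prkaa1* difference was 0.0046 (adjusted p = 0.974). The tissue outside muscle differed between sections: the hepatocytes list summed to 1.88 to 12445 raw CPM, the erythrocytes list to 239 to 24603, and the adrenal cortex list to 1471 in E14.5 control 1 and to 3.13 to 8.10 in the others. It gave 25 *Prkaa2* UMIs in E14.5 control 3, the fewest of the 8 sections, and the part of these tissues in the differences was not tested.

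At E18.5 all 5 members were higher in muscle, where 53.2% of genes were called. *Prkaa2* had 221 and 214 CPM against 57.4 and 39.3 outside (2.19), *Prkag3* 97.0 and 102 against 28.7 and 22.2 (1.98), *Prkab2* 80.1 and 67.9 against 25.8 and 18.2 (1.76) and *Ppargc1a* 81.0 and 89.0 against 30.3 and 25.5 (1.61). *Prkaa1* had 47.5 and 49.7 against 34.8 and 33.7 (0.50, adjusted p = 0.00228) and turned to -0.20 with total UMIs alone. The muscle difference was larger at E18.5 than at E14.5 for *Ppargc1a*, by 0.94 (SE 0.21, adjusted p = 0.0209), and for *Prkab2*, by 0.73 (SE 0.16, adjusted p = 0.0223), in a test that called 18.6% of genes. Both calls were lost without E14.5 control 2 (0.0680 for *Ppargc1a* and 0.0856 for *Prkab2*), without E18.5 control 2 (0.115 and 0.0799) and with total UMIs alone. In the mutants 3 members were called in the CaV1.1 KO at E14.5 (11.4% of genes) and at E18.5 (15.9%), and 4 in the β-cat cKO (34.4%), all higher in muscle. *Prkaa2* stood at 1.95, 1.70 and 2.54, *Prkag3* at 2.26, 1.62 and 2.42 and *Prkab2* at 1.26, 1.53 and 1.76. *Ppargc1a* was called in the cKO (1.13) and not in the KO at E14.5 (0.27) or E18.5 (0.70, adjusted p = 0.0554). Among the lists at E18.5, all 19 PGC-1-driven genes were higher in muscle (*Cox6a2*, 2.56), as were 9 of 16 substrates (*Acacb*, 2.28; *Gys1*, 2.11) with 1 lower (*Acaca*, -0.32).

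**Figure D5:**
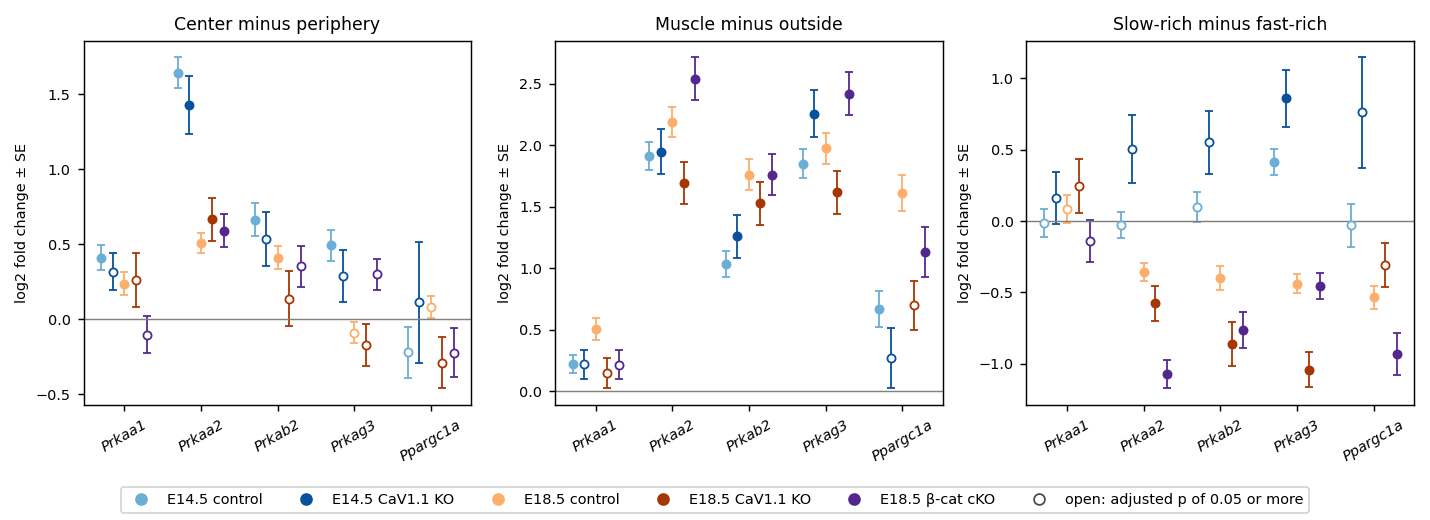
Log2 differences with their standard errors for the 5 members in 3 panels (center against periphery, muscle against outside, slow-rich against fast-rich spots), colored by group and drawn filled where the edgeR adjusted p was under 0.05 and open otherwise. *Prkaa2* has the largest center to periphery difference of the members in E14.5 controls (1.65), and *Prkaa1* the smallest muscle to outside difference of the members in E18.5 controls (0.50, which turned to -0.20 with total UMIs alone).

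Spots were also split by fiber type genes, into the 25% with the highest and the 25% with the lowest score of type I over type IIb genes, called slow-rich and fast-rich. At E18.5 *Prkaa2*, *Prkab2*, *Prkag3* and *Ppargc1a* were all lower in slow-rich spots. *Ppargc1a* had 57.0 and 64.7 CPM in slow-rich and 85.0 and 91.1 in fast-rich spots (-0.53, SE 0.08, adjusted p = 6.29e-05), *Prkag3* 73.7 and 72.2 against 95.3 and 103 (-0.44, SE 0.07, 4.74e-05), *Prkab2* 61.9 and 50.6 against 79.8 and 68.4 (-0.40, SE 0.08, 0.00137) and *Prkaa2* 177 and 158 against 217 and 211 (-0.36, SE 0.06, 0.000315). *Prkaa1*, with 42.0 and 44.2 against 42.1 and 39.2, was not called (0.08, adjusted p = 0.672). Here 15.5% of genes were called. DESeq2 called none of the 4 (adjusted p 0.161 to 0.439), and without E18.5 control 2 *Ppargc1a* alone kept the call. The 9 muscle genes were lower in the slow-rich spots as well (119145 and 120545 raw CPM against 139535 and 143567), and the fibroblasts list higher (8892 and 12702 against 6377 and 7426). Their part in the difference was not tested.

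At E14.5 *Prkag3* was the member called and it ran the other way, with 42.5, 35.7 and 51.8 CPM in slow-rich and 34.8, 26.9 and 35.4 in fast-rich spots (0.41, SE 0.09, adjusted p = 0.00937; 3.98% of genes called). Each section was higher in its slow-rich spots, and the lowest slow-rich value lay just above the highest fast-rich one. The call was lost with DESeq2 (0.203), with 50% of the spots in each class in place of 25% (0.0557) and without E14.5 control 2 (0.155) or 3 (0.0614). The summed type IIb list hardly separated these classes at E14.5 (1481, 1130 and 1213 raw CPM in slow-rich and 1571, 1065 and 1300 in fast-rich spots). The score weighs each gene alike and the sum does not, so which genes set the classes apart was not tested. Depth differed as well. Controls 1, 2 and 3 had 17645, 41069 and 23860 UMIs per spot in slow-rich and 55628, 48778 and 18863 in fast-rich spots. The muscle genes were higher in slow-rich spots at this stage (24449 to 31904 against 17938 to 24942). The part of depth and of the muscle genes was not tested. The slow to fast difference changed between stages for *Prkag3*, by -0.85 (SE 0.11, adjusted p = 3.07e-05), and for *Prkab2*, by -0.50 (SE 0.13, 0.0183), in a test that called 9.12% of genes; the latter call was lost without E14.5 control 1 (0.0657), E18.5 control 1 (0.0735) or E18.5 control 2 (0.141). *Prkaa2* (-0.33, 0.0677) and *Ppargc1a* (-0.50, 0.0755) were not called.

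In the mutant sections the members called had the direction seen in the controls of their stage, and the size of the differences was not tested against those controls. In the CaV1.1 KO at E14.5 *Prkag3* was higher in slow-rich spots, at 39.4 against 21.7 CPM (0.86, SE 0.20, adjusted p = 0.012, 3.69% called), which DESeq2 did not call (0.89, 0.0540). That section had 18133 UMIs per spot in slow-rich and 41267 in fast-rich spots, and the part of depth was not tested. At E18.5 the KO had lower values in slow-rich spots for *Prkag3* (63.0 against 130 CPM, -1.04), *Prkab2* (41.5 against 75.4, -0.86) and *Prkaa2* (91.1 against 136, -0.57, adjusted p = 0.0017), where 17.0% of genes were called, and *Ppargc1a* (49.4 against 61.1, -0.31, 0.197) was not called. The *Prkaa2* call was lost with DESeq2 (-0.58, 0.0930) and with total UMIs alone (-0.32, 0.0628). The β-cat cKO had lower values for *Prkaa2* (82.3 against 173, -1.07, 3.3e-08), *Ppargc1a* (21.6 against 41.0, -0.93), *Prkab2* (-0.76) and *Prkag3* (-0.45), where 21.6% were called. *Prkag3* was not called with total UMIs alone (-0.09, adjusted p = 0.436) or DESeq2 (-0.47, 0.362), nor *Prkab2* with DESeq2 (-0.77, 0.0753). The muscle genes stood at 51837 against 93250 raw CPM in the KO and 82707 against 127608 in the cKO. At E18.5 the PGC-1-driven genes went the same way, with 13 of 19 lower in slow-rich spots and 0 higher in controls (*Idh3a*, -0.48; *Atp5b*, -0.42), 14 and 0 in the KO and 15 and 0 in the cKO. For substrates 6 were lower in control slow-rich spots, with *Gys1* at -0.44 and *Tbc1d4* at -0.43.

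Across the 24 sums of center, periphery and fibers in between, the genes most like each member were ranked by Pearson correlation among 5891 genes. The sums come from 8 sections and share depth and stage, so r is a description. *Prkaa2* lay closest to *Tbx15*, *Kcnj12* and *Ryr3* (r = 0.98, 0.98 and 0.97), *Prkab2* to *Prkaa2* itself (0.96), *Ryr3* and *Kcnj12* (both 0.95), *Prkag3* to *Sec14l1*, *Ankrd10* and *Zhx2* (0.96, 0.95 and 0.95) and *Ppargc1a* to *Lrrfip2*, *Tspan7* and *Plekhh3* (all 0.97). *Prkaa1* had weaker neighbors, *Fzd9*, *Myf5* and *Ghr* (0.80, 0.80 and 0.79). Between spots of a section, with 1.40 to 3.82 *Prkaa2* UMIs per spot on average, *Prkaa2* and the acetylcholine receptor gene *Chrna1* correlated at 0.056 to 0.354, and *Prkaa2* and *Prkab2* at 0.015 to 0.143.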

How the data were processed

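Visium FFPE probe libraries were measured in 8 diaphragm sections. The values are UMI counts per gene and spot under tissue, deposited by the authors without normalization; per the file headers and the submitters' processing notes they were made with Space Ranger (2.0.0 in the headers, 2.0.1 in the methods) against mm10. The deposited Moran scores per gene and section were not used. The 5 members and all lists were chosen with earlier results of these data known.

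Spots with at least 1000 UMIs were kept. Muscle was the set of spots whose mean of 9 log-normalised sarcomere genes lay above the section's Otsu threshold. The 15% of muscle spots highest for 8 endplate genes formed the center and the 15% highest for 4 MTJ genes the periphery; slow-rich and fast-rich spots were the 25% at either end of a score of 6 type I minus 5 type IIb genes. No member entered a score. UMIs were summed per section and class, so that sections, not spots, were the replicates. A quasi-likelihood F test (edgeR 4.0.16, R 4.3.3, filterByExpr, TMM) was run over all genes with Benjamini-Hochberg adjustment at 0.05, with section as a block for classes within a section. Center and periphery deviations of a control section correlated at 0.327, 0.338 and 0.0894 in the 3 E14.5 controls. Muscle sums held 12835167 to 75800909 UMIs. On simulated counts, 90% and 100% of genes changed by 1 and 2 on the log2 scale were recovered between stages (14405 genes), and 78% and 98% between center and periphery at E14.5 (13761 genes). The simulation gave all genes the same dispersion and no section effects. It changed 100 genes by each size, none of them with low expected counts. The rates hold for that setting and do not give the power in these data. The *Prkaa2* share was tested by exact permutation, two-sided, in 4 comparisons added after its values had been seen. Genes named beside the members were the called genes with the largest change, up to 2 per list, direction and comparison (mean log2 CPM 4 or more), and the 3 genes most correlated with each member (mean 5 or more). Alternatives comprised DESeq2 1.42.0, other scalings, filters, spot minima, class shares, distance from the muscle edge, blocks and leaving out each control section. The muscle edge was the nearest kept spot outside muscle, and bare slide did not count. Scaling to total UMIs alone was chosen after seeing the data. A comparison of muscle parts and a listed gene are not reported here. Classes were made with Python 3.11.15 and scikit-image 0.26.0.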

Additional observations from a re-analysis of the deposited data

Results flagged for a closer look

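For 6 results a test of the difference between the control stages passed, that is, a spatial difference changed from E14.5 to E18.5. The center to periphery difference changed by -1.14 for *Prkaa2* and by -0.58 for *Prkag3*; with regions set by distance from the muscle edge these were -0.00 and 0.04. The muscle to outside difference changed by 0.73 for *Prkab2* and by 0.94 for *Ppargc1a*, and neither passed with total UMIs alone (0.24 and 0.46). The slow-rich to fast-rich difference changed by -0.85 for *Prkag3* and by -0.50 for *Prkab2*, the latter not called with total UMIs alone (-0.29, adjusted p = 0.133).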

How the results depend on the processing

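Of the values recomputed under alternatives, 892 kept their direction and side of the threshold, 111 lost the call, 17 gained it and 26 changed sign. All values here are log2 differences or numbers of the 5 members called, with the reported number given first; the cause of a change was not tested.

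With DESeq2 the number called went from 1 to 2 in the CaV1.1 KO at E14.5 and in the β-cat cKO, from 0 to 1 between cKO and KO, from 3 to 0 for center against the fibers in between at E18.5, and, for slow-rich against fast-rich spots, from 1 to 0 in E14.5 controls, 4 to 0 in E18.5 controls, 1 to 0 in the KO at E14.5, 4 to 2 in the cKO and 2 to 1 for the stage difference. With no filter on low counts it went from 1 to 2 in the cKO, 0 to 1 between cKO and KO and 1 to 2 for center against periphery in the cKO. With a minimum of 5000 UMIs per spot it went from 0 to 1 and from 1 to 2 in the last 2 of these, and with DESeq2 size factors in edgeR from 1 to 2 for center against periphery in the cKO.

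With all kept spots the number called went from 1 to 2 in the cKO and the KO at E18.5 and from 0 to 1 between them, and *Prkag3* in the KO at E18.5 turned to -0.12. In muscle over 150 µm from its edge it went from 1 to 0 in the KO at both stages. With total UMIs alone it went from 1 to 2 in the KO at E18.5, 0 to 1 between cKO and KO, 0 to 2 for the stage difference of the KO, 2 to 0 for the stage difference of muscle against outside and 2 to 1 for that of slow-rich against fast-rich; *Ppargc1a*, *Prkab2* and *Prkaa1* in the KO at E18.5 turned to 0.16, 0.26 and 0.44, *Prkaa1* in the cKO to 0.013, and *Prkaa1* in muscle against outside at E18.5 to -0.20.

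Scaled to the 9 muscle genes, the number called went from 1 to 5 in the KO at E18.5, 0 to 5 between cKO and KO, 0 to 2 for the stage difference of the KO, 3 to 1 for center against periphery at E18.5, 1 to 0 in the KO at E18.5 and 4 to 2 for center against the fibers in between at E14.5. The stage differences of *Ppargc1a*, *Prkaa2*, *Prkag3* and *Prkab2* turned to -0.49, -1.25, -2.03 and -2.18. *Prkaa1*, *Prkab2*, *Ppargc1a* and *Prkaa2* turned to 1.31, 1.12, 1.02 and 0.62 in the KO at E18.5, *Prkab2* and *Prkag3* to 0.25 and 0.11 in the KO at E14.5, *Prkaa1* and *Prkab2* to 0.32 and 0.21 in the cKO, and *Ppargc1a* for center against periphery at E18.5 to -0.073.

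With regions of 25% of the muscle spots, center against periphery went from 3 to 1 called in E18.5 controls, 1 to 2 in the KO at E14.5 and 1 to 0 in the cKO and the KO at E18.5. With regions by distance it went from 1 to 3 in the KO at E18.5, 1 to 4 in the cKO and 2 to 0 for the stage difference, and center against the fibers in between at E14.5 from 4 to 0. By distance, *Ppargc1a* turned to 0.24 for center against periphery at E14.5, *Prkaa1* to -0.012 and *Prkag3* to 0.63 at E18.5, the stage difference of *Prkag3* to 0.043, and *Prkag3* and *Ppargc1a* to 0.066 and 0.36 for center against the fibers in between at E18.5. With 50% in place of 25% of spots as slow-rich and as fast-rich, E14.5 controls went from 1 to 0.

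With the replicate number as a block, the KO at E14.5 and the cKO went from 1 to 0 called (0% and 0.546% of all genes called, against 60.5% between the stages). Deviations of E14.5 and E18.5 controls of the same number correlated at -0.329 and -0.321; with 2 E18.5 controls these signs are tied by centring and do not settle whether the numbers mark a batch, and no label says that they do. With no replicate block, that is, without section as a block, center against periphery went from 4 to 2 in E14.5 controls, 3 to 0 in E18.5 controls, 1 to 0 in each mutant and 2 to 1 for the stage difference; center against the fibers in between went from 4 to 1 and 3 to 0; the stage difference of muscle against outside went from 2 to 1; and slow-rich against fast-rich went from 1 to 0, 4 to 0, 1 to 0, 3 to 1, 4 to 2 and 2 to 0 in E14.5 controls, E18.5 controls, the KO at E14.5 and E18.5, the cKO and the stage difference.

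Leaving out each control section in turn gave 4 to 5 members called between the stages, 0 to 1 in the KO at E14.5, 1 to 2 in the cKO and 0 to 1 between cKO and KO. Center against periphery gave 1 to 3 in E18.5 controls and 1 to 2 in the KO at E14.5 and the cKO, center against the fibers in between 1 to 3 at E18.5, muscle against outside 3 to 4 in E14.5 controls and 0 to 3 for its stage difference, and slow-rich against fast-rich 0 to 1, 1 to 4 and 1 to 2 in E14.5 controls, E18.5 controls and the stage difference. *Ppargc1a* for center against periphery at E18.5 ranged from -0.024 to 0.20. Where this left 1 control at E18.5, it was assumed to vary as the other groups. The muscle of E14.5 sections held 135 to 390 *Ppargc1a* UMIs, which limits the precision of its regional values.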
